A study of Rattus norvegicus with 4 samples.

Results

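The 7 genes followed here, Gabra2, Gabra3, Gabra4, Gabra5, Gabrb1, Gabrb2 and Gabrd, code for subunits of the GABA-A receptor and were taken by name from the gene column of the count files. Rows for 6 of the 7 were found among the 25810 genes, and counts of Gabra4 were not analysed here. The GABA-A receptor is a channel for chloride ions, built of subunits set in a ring, that opens when the transmitter GABA binds between an alpha and a beta subunit. The alpha subunit largely sets how the receptor responds to benzodiazepines, beta subunits are needed for its assembly and transport to the cell surface, a gamma subunit places many receptors at synapses, and the delta subunit belongs to receptors outside synapses that answer to low, steady GABA. Adrenal chromaffin cells, the normal counterpart of the pheochromocytoma from which the rat line PC12 was isolated, are known to carry such receptors.

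RNA was sequenced from 2 untreated clones of PC12, with 2 libraries from each. The clone wtPC12 is the wild type with low levels of REST, a repressor that keeps many neuronal genes silent outside the nervous system, and hrPC12 is a clone with spontaneously high REST. With 1 clone for each level, the effect of REST and other features of a clone cannot be told apart. The labels name no separate cultures, so p values measure the spread between libraries, which may be technical. The comparison asks how the subunit genes are expressed at low and at high REST.

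Reads counted on genes ranged from 20975027 to 27246502 per library, while 49.9% to 55.9% of the reads fell outside annotated genes, and reads in more than 1 gene numbered 236166 in hrPC12 replicate 1 against 55908 to 78907 in the other libraries. Both kinds of reads were totalled apart from the genes and are in none of the counts below. How their exclusion affects those counts was not tested. Rest itself, the gene that defines the clones, had 43.0 and 132 normalized counts (reads scaled with edgeR's TMM factors) in the wtPC12 libraries and 964 and 915 in those of hrPC12. Its log2 FC (hrPC12 over wtPC12) was 3.42 with an adj. p value of 0.0115 from edgeR's quasi-likelihood test, short of the threshold of 0.01. It was called under 9 of the 11 alternative settings, and leaving out wtPC12 replicate 1 gave a log2 FC of 2.80, while leaving out wtPC12 replicate 2 gave 4.44. Of 9 chromaffin cell markers 8 were found and tested. Of these, 5 were lower in hrPC12 past both thresholds used throughout (adj. p value under 0.01, and log2 FC below −2 or above 2), among them Th, the enzyme that starts catecholamine synthesis, and Chgb, a granin of the secretory granules. Over all tested genes 5.46% were called lower. Ddc, the next enzyme of catecholamine synthesis, had 24196 and 20841 normalized counts in wtPC12 and 26281 and 27995 in hrPC12 and was not called, nor was the transcription factor gene Gata3 (log2 FC −0.03). The summed level of the list was 816740 to 955353 normalized counts in wtPC12 and 47390 to 51443 in hrPC12, the former mostly from Chgb and Th.

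The promoter windows of 3 members are shown because they span the range of base composition among genes whose counts, given further on, are all near 0. RefSeq (build GRCr8, not the build of the counts) gave a window for 6 of the 7 members, Gabra2 being the exception. The 250 bases before the start are printed 5′ to 3′ on the strand of the gene, with CpG dinucleotides in capitals, for Gabrd at chr5:171252710-171252959 (minus strand), Gabra5 at chr1:117516607-117516856 (minus strand) and Gabra3 at chrX:155543871-155544120 (minus strand).
Gabrd: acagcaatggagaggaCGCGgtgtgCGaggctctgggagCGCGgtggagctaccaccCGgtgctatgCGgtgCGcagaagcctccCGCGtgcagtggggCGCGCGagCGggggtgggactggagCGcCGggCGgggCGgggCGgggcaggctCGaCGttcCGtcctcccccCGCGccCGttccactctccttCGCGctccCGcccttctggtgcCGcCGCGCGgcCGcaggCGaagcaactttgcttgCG
Gabra5: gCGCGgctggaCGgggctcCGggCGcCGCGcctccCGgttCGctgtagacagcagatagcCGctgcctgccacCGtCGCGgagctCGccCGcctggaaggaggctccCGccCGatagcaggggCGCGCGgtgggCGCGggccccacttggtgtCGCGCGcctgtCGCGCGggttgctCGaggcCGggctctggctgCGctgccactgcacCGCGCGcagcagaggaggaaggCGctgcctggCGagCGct
Gabra3: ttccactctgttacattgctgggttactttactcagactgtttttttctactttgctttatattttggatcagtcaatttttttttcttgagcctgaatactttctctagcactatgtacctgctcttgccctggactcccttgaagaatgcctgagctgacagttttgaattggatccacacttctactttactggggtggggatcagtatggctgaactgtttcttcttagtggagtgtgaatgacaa
The sequence of Gabrd is 74% G and C with 35 CpG, that of Gabra5 76.4% with 37 CpG, and that of Gabra3 40.4% with 0 CpG. The median over 33469 promoters was 51.2% G and C. Gabra4, with 71.6% and 33 CpG, resembled the first pair, while Gabrb1 (49.2%, 8 CpG) and Gabrb2 (43.2%, 8 CpG) were poorer in CpG. Pieces of the sequence that REST binds, RE1, were searched on both strands as its left part TCAGCACC, present in 1.25% of all windows, and its right part GGACAGC, present in 5.3%. Neither was found in the windows of the 6 members that have one. Only exact matches in these 250 bases were searched, so sites elsewhere or with other letters would be missed. At such shares 6 windows would often hold neither part, so their absence does not show that the members lack RE1. Among other subunit genes with a window, Gabrq held 1 left part and Gabrg3 and Gabrr3 each 1 right part.

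The members were listed with 0 to 6 reads in every library of both clones. Together they drew 11 reads over the 4 libraries, 8 in wtPC12 and 3 in hrPC12, and none of the 6 passed the filter on low counts (a mean normalized count of 5 or more, with reads from each clone), which 53.2% of all genes passed. No member was therefore tested or called, beside 5.46% of all 13726 tested genes called lower and 4.84% called higher in hrPC12. A count of 0 allows up to 3 reads, which is 0.143 (wtPC12 replicate 1), 0.136 (wtPC12 replicate 2), 0.110 (hrPC12 replicate 1) and 0.139 (hrPC12 replicate 2) CPM, counts per 1000000 reads on genes. These limits and the intervals below cover counting error only. Of the members, 3 had no read in any library and 5 never exceeded 3 reads, where 28.6% and 39.9% of all genes did so. A row can be listed at 0 for a gene that most cells use: Dbi, which codes for the acyl-CoA binding protein that also acts on GABA-A receptors, had 0 reads in all 4 libraries. Whether the annotation or the counting has a part in the zeros of the members was not tested.

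Of the alpha subunit genes, Gabra2 and Gabra5 had 0 reads in each of the 4 libraries. Gabra2 codes for an alpha subunit found at synapses of the forebrain, and the alpha subunit of Gabra5 is best known from receptors outside synapses in the hippocampus. Gabra3, whose product is prominent in monoamine neurons and in the developing brain, had 0 reads in both wtPC12 libraries, 1 in hrPC12 replicate 1 and 0 in hrPC12 replicate 2. That single read corresponds to 0.0367 CPM, with an exact (Clopper-Pearson) 95% interval of 0.000929 to 0.204, so the libraries of the clones were not separated by it. In neither clone did any of these 3 alpha subunit genes rise above the limit set by depth.

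The beta subunit genes of the list were as low. Gabrb2, a beta subunit gene abundant in the adult brain, had 0 reads in all 4 libraries. Gabrb1 had 0 reads in both wtPC12 libraries and 1 read in each hrPC12 library, which is below the 3 reads that a count of 0 allows. No fold change is given for Gabra3 or Gabrb1, because both clones lie under that limit.

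Gabrd, the gene of the delta subunit, was the member with the most reads and the only one read in wtPC12. Its reads numbered 6 (replicate 1) and 2 (replicate 2) in wtPC12, and 0 in each hrPC12 library. The first of these corresponds to 0.286 CPM (exact 95% interval 0.105 to 0.623) and the second to 0.0909 (0.0110 to 0.328). The wtPC12 libraries lay above those of hrPC12, but only wtPC12 replicate 1 exceeded 3 reads. With hrPC12 set to 3 reads per library, the mean of Gabrd in wtPC12 was 1.62-fold that of hrPC12. That ratio leaves out the counting error of the wtPC12 reads and is no lower bound. The exact 95% intervals of the hrPC12 libraries reached 0.135 (replicate 1) and 0.171 CPM (replicate 2), so they overlapped those of both wtPC12 libraries. Without wtPC12 replicate 1 both clones would lie under the limit and no fold could be given. When every gene with at least 1 read was tested (18416 genes), Gabrd had an unadjusted p value of 0.0342 and an adj. p value of 0.0928 from edgeR's quasi-likelihood test, and 0.259 from DESeq2, and was not called by either. Of the 128 genes with 8 reads in all over the 4 libraries, 8 (6.25%) had every read in wtPC12 and 23 (18.0%) had every read in hrPC12. The genes whose log2(normalized count + 1) over the 4 libraries lay closest to that of Gabrd, a description over 4 points that share their depth, were Otop2, with the same reads in each library (Euclidean distance 0), and Bsx (distance 0.196, shared with Slc36a2).

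**Figure D1:**
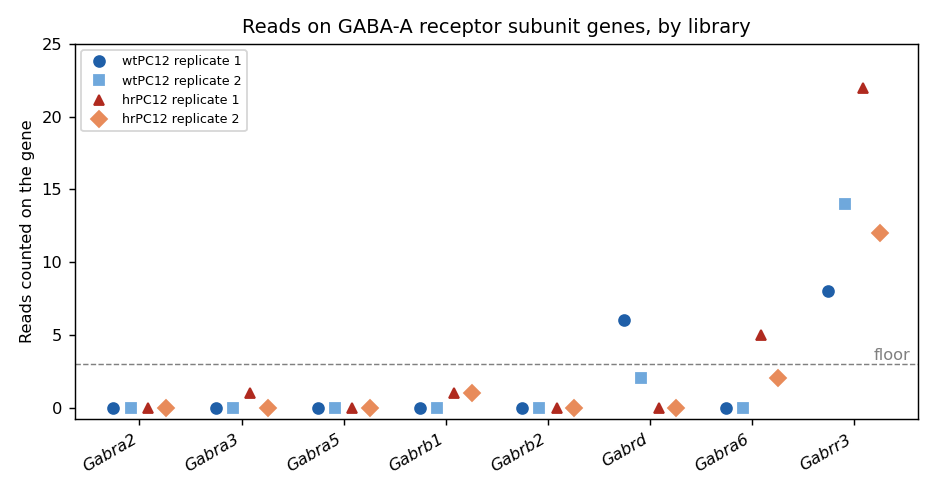
Reads counted in each of the 4 libraries (markers) on the 6 member genes found, from Gabra2 to Gabrd, and on Gabra6 and Gabrr3; the dashed line marks the floor of 3 reads. Among the members the mark of Gabrd in wtPC12 replicate 1 (6 reads) is alone above the floor, while Gabrr3 has 8 to 22 reads in every library.

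Of the other GABA-A receptor subunit genes, 9 are considered here and 8 of these were found by symbol. Gabra6, whose alpha subunit is known from cerebellar granule cells, had 0 reads in both wtPC12 libraries and 5 and 2 in hrPC12, too few for a fold against the limit. Gabrr3, a rho subunit gene of a kind known from the retina, had 8 and 14 reads in wtPC12 and 22 and 12 in hrPC12. The clones overlapped, with a log2 FC of 0.37 (standard error 0.53, adj. p value 0.604 from edgeR's test), and it was the 1 gene of the 8 to pass the filter on low counts. Gabrq had 1 read, in wtPC12 replicate 1. Gabrg1, Gabrg3, Gabre, Gabrr1 and Gabrr2 had 0 reads in all 4 libraries. A row named GBRP_RAT, the UniProt entry name of the pi subunit, had 0 reads in wtPC12 and 3 and 1 in hrPC12.

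Several of these genes lie next to each other in the rat genome (RefSeq assembly GRCr8, used only for the order of genes). Gabra5 lies beside Gabrg3, and both were without a read. Gabrb2, also unread, lies beside Gabra6, whose 7 reads came from hrPC12. Gabrb1 and Gabra4 are neighbours, as are Gabra2 and Gabrg1, and the 3 of these 4 with a row in the files held 2 reads in all, both on Gabrb1 in hrPC12.

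Around the receptor, 46 related genes were followed by role, these subunit genes included, of which 41 were found and 23 tested. Past both thresholds 3 were lower in hrPC12 (Abat, Shisa7 and Hap1) and 0 were higher, beside 5.46% and 4.84% of all tested genes. With DESeq2 4 of the related genes were lower and 0 higher, beside 933 and 903 of all 13726 tested genes. In edgeR's quasi-likelihood test 9 were lower and 2 higher with an unadjusted p value under 0.05, beside 22.7% and 23.6% of all tested genes. Their median log2 FC was −0.45, beside 0.06 over all tested genes. In bulk RNA, fewer cells that express a gene and less RNA per cell cannot be told apart. Libraries of the clones did not overlap for 12 of the 23 with hrPC12 lower and for 3 with hrPC12 higher, where this held for 35.6% and 37.9% of all tested genes. Without wtPC12 replicate 2 none of the 3 calls remained, with adj. p values from 0.0140 to 0.0207, and no gene of the whole table was called, although 6798 of 13590 had an unadjusted p value under 0.05.

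Of the 8 genes for making, breaking down and carrying GABA, Abat and Aldh5a1 passed the filter on low counts. Gad1 and Gad2, the enzymes that make GABA from glutamate, had 0 reads in all 4 libraries, and of the transporter genes Slc6a11, Slc6a12, Slc6a13 and Slc32a1 none had more than 1 read in any library. Abat, the transaminase that breaks GABA down, fell in hrPC12. It had 575 and 636 normalized counts in wtPC12 and 25.4 and 15.2 in hrPC12. The difference was 29.4-fold (log2 FC −4.88, standard error 0.38, adj. p value 0.00124 from edgeR's test). Aldh5a1, the next enzyme of that pathway, had 535 and 739 normalized counts in wtPC12 and 543 and 618 in hrPC12, with overlap between the clones and a log2 FC of −0.13 (standard error 0.26).

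Both subunits of the GABA-B receptor, which acts through G proteins, were read in both clones. Gabbr1, the subunit that binds GABA, had 2302 and 3257 normalized counts in wtPC12 and 2027 and 2048 in hrPC12 (log2 FC −0.45, standard error 0.22, adj. p value 0.176 from edgeR's test). Gabbr2, the subunit that couples to the G protein, had 323 and 460 in wtPC12 and 125 and 112 in hrPC12 (log2 FC −1.72, standard error 0.31, adj. p value 0.0153). For both genes the hrPC12 libraries lay below those of wtPC12, which held for 35.6% of all tested genes, and neither passed the thresholds. Of the 5 glycine receptor subunit genes, which code for the other family of chloride channels gated by an inhibitory transmitter, 4 were found and none had more than 4 reads in a library.

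Among 20 genes for anchoring and transport of the receptor, 18 were found, 17 tested and 2 called lower, beside 5.46% of all tested genes. Shisa7, an auxiliary protein of GABA-A receptors, fell from 1235 and 2051 normalized counts in wtPC12 to 196 and 162 in hrPC12 (log2 FC −3.20, standard error 0.34, adj. p value 0.00301 from edgeR's test). Hap1, which links receptors to the kinesin motor on their way to the surface, fell from 7825 and 9625 to 1549 and 1622 (log2 FC −2.46, standard error 0.19, adj. p value 0.00124). Iqsec3, a partner of the scaffold at inhibitory synapses, had 849 and 1244 normalized counts in wtPC12 and 5.08 and 58.7 in hrPC12. Its log2 FC of −5.06 had a standard error of 1.03 and an adj. p value of 0.0208, and its hrPC12 libraries were far apart. Gphn, the gene of that scaffold, gephyrin, had 1271 and 1178 in wtPC12 and 826 and 841 in hrPC12 (log2 FC −0.56, standard error 0.19, adj. p value 0.0821). Gabarap, which binds the gamma subunit, had overlapping libraries and a log2 FC of 0.09 (standard error 0.20). Dbi was the gene of the 18 found that was not tested.

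Slc12a2, the cotransporter that loads cells with chloride, had 2018 and 2743 normalized counts in wtPC12 and 5187 and 5269 in hrPC12, with no overlap and a log2 FC of 1.13 (standard error 0.21, adj. p value 0.0160 from edgeR's test), short of both thresholds. Slc12a5, its counterpart that removes chloride, was not analysed here. Markers of other cell types were summed for comparison. Of the 3 neuron markers found, Tubb3 was called lower in hrPC12 (log2 FC −2.02), while Map2 (0.47) and Syn1 (−0.51) were not called. They summed to 5711 to 7248 normalized counts in wtPC12 and 2218 to 2391 in hrPC12, mostly from Tubb3. The 3 found for astrocytes and oligodendrocytes (Gfap, Aqp4 and Olig2) summed to 22.7 to 24.4 and 0 to 0.847, and the 4 for white blood cells to 33.0 to 33.7 and 84.7 to 94.1, mostly from Cd68, with Ptprc at 0 to 1 read. Their part in the differences between the clones was not tested.

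**Figure D2:**
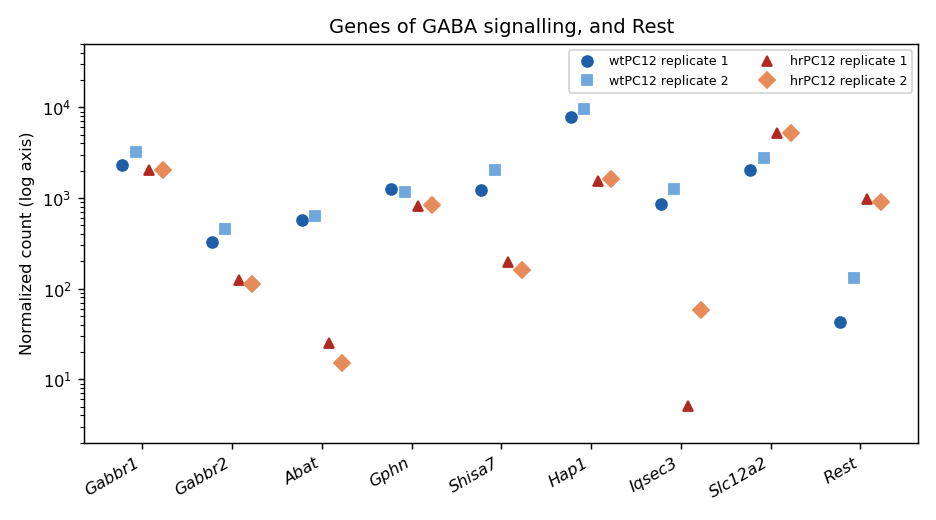
Normalized counts (log axis) of 8 genes of GABA signalling and Rest, with 1 marker for each of the 4 libraries. The hrPC12 libraries lie at 25.4 and 15.2 for Abat, below both wtPC12 libraries, and above them for Slc12a2 and Rest.

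**Figure D3:**
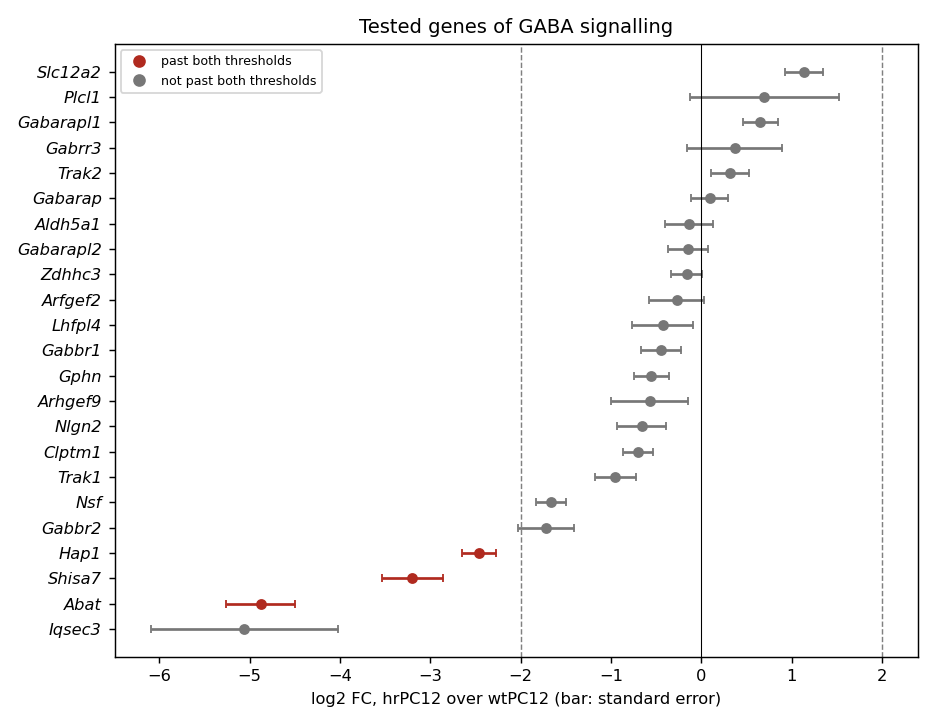
The log2 FC (hrPC12 over wtPC12, edgeR) of the 23 tested genes of GABA signalling, with standard errors as bars, dashed lines at −2 and 2, and the genes past both thresholds in red. Red marks 3 genes, all lower in hrPC12, from Hap1 (−2.46) to Abat (−4.88); no member appears because none passed the filter on low counts.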

How the data were processed

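The authors aligned paired-end reads of 4 PC12 libraries to the rat build rn4 (TopHat2 2.0.4, with HTSeq 0.5.3 and DESeq 1.9.12 in the submitters' processing notes) and deposited raw counts per gene and library; the gene annotation is not given in the sources used here. A table of the authors' DESeq comparison (clone means, fold changes and p values) was not used. Counts were normalized with TMM factors in edgeR 4.0.16 (R 4.3.3), scaled to the mean effective library size. The filter and thresholds were those of the study, and edgeR's quasi-likelihood test (legacy option on) with Benjamini-Hochberg adjustment over all 13726 tested genes replaced DESeq. Standard errors are the log2 FC divided by the square root of F. Totals of reads outside genes were left out of library sizes. Alternatives were RLE factors, library totals alone, every gene read, filterByExpr, DESeq2 1.42.0, the legacy option off, a looser adj. p value of 0.05, and the fit without each library, where a clone with 1 library was assumed to vary like the other. The tests were checked on simulated counts with changes placed only in genes that pass the filter. That check does not cover counts as low as those of the members. Counts per gene are not corrected for length, so genes were not ranked by level. The members and lists were chosen with earlier results of these data known. Genes named are the members, Rest, other GABA-A receptor subunit genes, related genes that were called, and the 2 genes closest to a member with over 3 reads; any other gene was named after its values were seen. Some genes that this rule or the lists cover are not reported here.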

Additional observations from a re-analysis of the deposited data

How the results depend on the processing

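No member was called under any of the 11 alternatives run. Members entered a test only when every gene with at least 1 read was tested, and then 3 did (Gabra3, Gabrb1 and Gabrd), with adj. p values from edgeR's quasi-likelihood test of 0.556, 0.408 and 0.0928. The count of related genes lower in hrPC12 was 3 or 4 under the alternatives that keep all libraries, Iqsec3 being the addition, and ranged from 0 to 4 with a library left out. It was 0 without wtPC12 replicate 2, where 13 related genes had an unadjusted p value under 0.05, and the cause was not tested. None was higher under any alternative. Over all genes, 665 were higher in the main setting, 1127 with every gene tested and 1088 with an adj. p value under 0.05. No paired analysis was run, because the numbers 1 and 2 given to the libraries here follow accession order and pair nothing. The labels hold no numbers that the clones share. Whether the letter b, which ends 1 label of each clone, marks a pair is not stated. At 3 reads or fewer per library, neither a presence nor a difference of a member was detectable. Gabrd alone of the members exceeded 3 reads, with 6 in wtPC12 replicate 1, and was not called.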
